A study of Mus musculus with 6 samples.

Results

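The enzymes of serine synthesis and of the folate-bound carbon pathway were followed in cultured mouse macrophages on 6 Affymetrix arrays, 2 for each of 3 groups. The 10 genes were chosen by their place in these pathways, with earlier results of these arrays known, so that every test below describes them and is not independent evidence. Each gene was read from probe sets whose annotation names exactly 1 symbol, and, where a gene had several, from the one selected on the highest mean level over the 6 arrays. Of the 10 genes, 9 were found among the 22180 genes measured, each with 1 probe set, so the level decided nothing: Phgdh (probe set 17408273), Psat1 (17363204), Psph (17453124), Shmt1 (17263673), Shmt2 (17245902), Mthfd1 (17276520), Mthfd1l (17231387), Mthfd2 (17468143) and Aldh1l2 (17243544). The expression of Pycr1 was not analysed here, and only its promoter window was searched.

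All cells came from the bone marrow of C57Bl/6 mice and were first grown for 5 days in 20 ng/ml M-CSF, the growth factor of macrophages. They were then kept for 6 days in FSL-1 (20 ng/ml) together with nutlin-3a (10 µM), in FSL-1 alone at the same dose, or in M-CSF at 50 ng/ml. FSL-1 is a synthetic lipopeptide that activates the receptor TLR2, and the series design names multinucleated giant cells as one of its groups. Nutlin-3a keeps the ligase Mdm2 from binding p53 and so raises the level of active p53. The labels do not say if M-CSF stayed in the medium together with FSL-1, nor by which gate the cells were sorted before RNA extraction. Nothing in the labels says that replicates are cultures or animals of their own, so each p-value covers only the spread of these arrays, and that spread may be technical.

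Serine is made from an intermediate of glycolysis in 3 steps. Phgdh oxidises it, Psat1 adds the amino group and Psph removes the phosphate. Serine hydroxymethyltransferases, Shmt1 mainly in the cytosol and Shmt2 in mitochondria, then split serine into glycine and a carbon unit carried by folate. In mitochondria Mthfd2 and Mthfd1l turn this unit stepwise into formate, and Aldh1l2 can oxidise it to carbon dioxide. In the cytosol the trifunctional enzyme Mthfd1 uses formate to refill the folate pool from which purines and thymidylate are built. Many of these genes are known targets of ATF4, the transcription factor of the amino acid and stress response. In activated lymphocytes and in dividing cells the mitochondrial branch is known to be induced, while in macrophages serine use is known to accompany inflammatory activation.

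The stretches before the start sites of 4 of these genes are shown because the genes cover the range of the responses described below, with Psat1, Mthfd2 and Phgdh called lower with nutlin-3a and Mthfd1 not called. Each run holds the 250 bases before the annotated start, 5′ to 3′ on the gene's strand, from RefSeq on build GRCm38.p6. Capitals mark a match to TGACNNNGC on either strand, the core letters of the antioxidant response element.
Psat1, chr19:15925060-15925309, minus strand: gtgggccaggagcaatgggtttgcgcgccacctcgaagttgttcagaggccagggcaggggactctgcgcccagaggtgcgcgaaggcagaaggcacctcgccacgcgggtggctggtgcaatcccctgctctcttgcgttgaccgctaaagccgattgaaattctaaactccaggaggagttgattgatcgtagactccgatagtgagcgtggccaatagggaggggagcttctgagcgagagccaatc
Mthfd2, chr6:83317605-83317854, minus strand: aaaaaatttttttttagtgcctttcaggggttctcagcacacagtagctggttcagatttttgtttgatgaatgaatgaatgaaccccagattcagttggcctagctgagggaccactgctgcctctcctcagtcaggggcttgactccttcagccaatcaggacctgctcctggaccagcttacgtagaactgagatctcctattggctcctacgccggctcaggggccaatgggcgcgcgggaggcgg
Phgdh, chr3:98339970-98340219, minus strand: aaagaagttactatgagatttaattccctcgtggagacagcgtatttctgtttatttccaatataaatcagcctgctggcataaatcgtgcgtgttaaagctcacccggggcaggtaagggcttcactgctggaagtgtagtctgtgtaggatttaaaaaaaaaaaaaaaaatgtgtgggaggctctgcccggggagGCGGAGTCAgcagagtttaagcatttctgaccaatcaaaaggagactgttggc
Mthfd1, chr12:76254982-76255231, plus strand: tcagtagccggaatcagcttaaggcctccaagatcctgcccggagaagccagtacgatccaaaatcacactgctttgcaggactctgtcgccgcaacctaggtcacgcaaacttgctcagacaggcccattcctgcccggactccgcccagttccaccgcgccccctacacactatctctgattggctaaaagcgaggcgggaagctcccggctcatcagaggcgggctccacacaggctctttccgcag

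RefSeq windows from 250 bases before to 50 bases after the start were found for 9 of the 10 genes, in 10 windows, since Psat1 has a pair of starts, of which the one shown is the further upstream. Aldh1l2 had no window. Letters were searched on both strands. TGATGNAA, the core of the C/EBP-ATF response element that ATF4 dimers bind, was in the window of 1 gene, Pycr1, against 3.97% of all 32851 windows. CACGTG, the E-box that Myc and Max bind, was in none of the genes' windows (0 of 9 genes) and in 7.15% of all windows. TGACNNNGC was in 2 genes, Phgdh, where the match begins at position -53 from the start, and Psph, where it begins at position 5 after it, and in 12.4% of all windows. A match is a description of letters, and a missing match says only that these letters are not in this stretch.

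The 9 enzymes were lowest in FSL-1 + nutlin-3a, with the exception of Mthfd1. In FSL-1 + nutlin-3a against FSL-1, 7 of 9 were called lower and 0 higher in the limma fit across all genes at an adjusted p under 0.05, where 4.12% of all genes were called lower and 2.38% higher. At an unadjusted p under 0.05 the counts were also 7 lower and 0 higher, where 10.8% of all genes were lower and 10.4% higher. In FSL-1 against M-CSF, 2 of 9 were called higher and 0 lower, against 3.91% and 2.95% of all genes. At an unadjusted p under 0.05, 5 were higher and 0 lower, against 10.7% and 10.5% of all genes. In FSL-1 + nutlin-3a cultures against M-CSF, 4 of 9 were called lower and 0 higher, against 4.94% and 4.58% of all genes. At an unadjusted p under 0.05, 6 were lower and 1 higher, against 11.9% of all genes in each direction. These comparisons share arrays and so are not independent of each other.

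**Figure D1:**
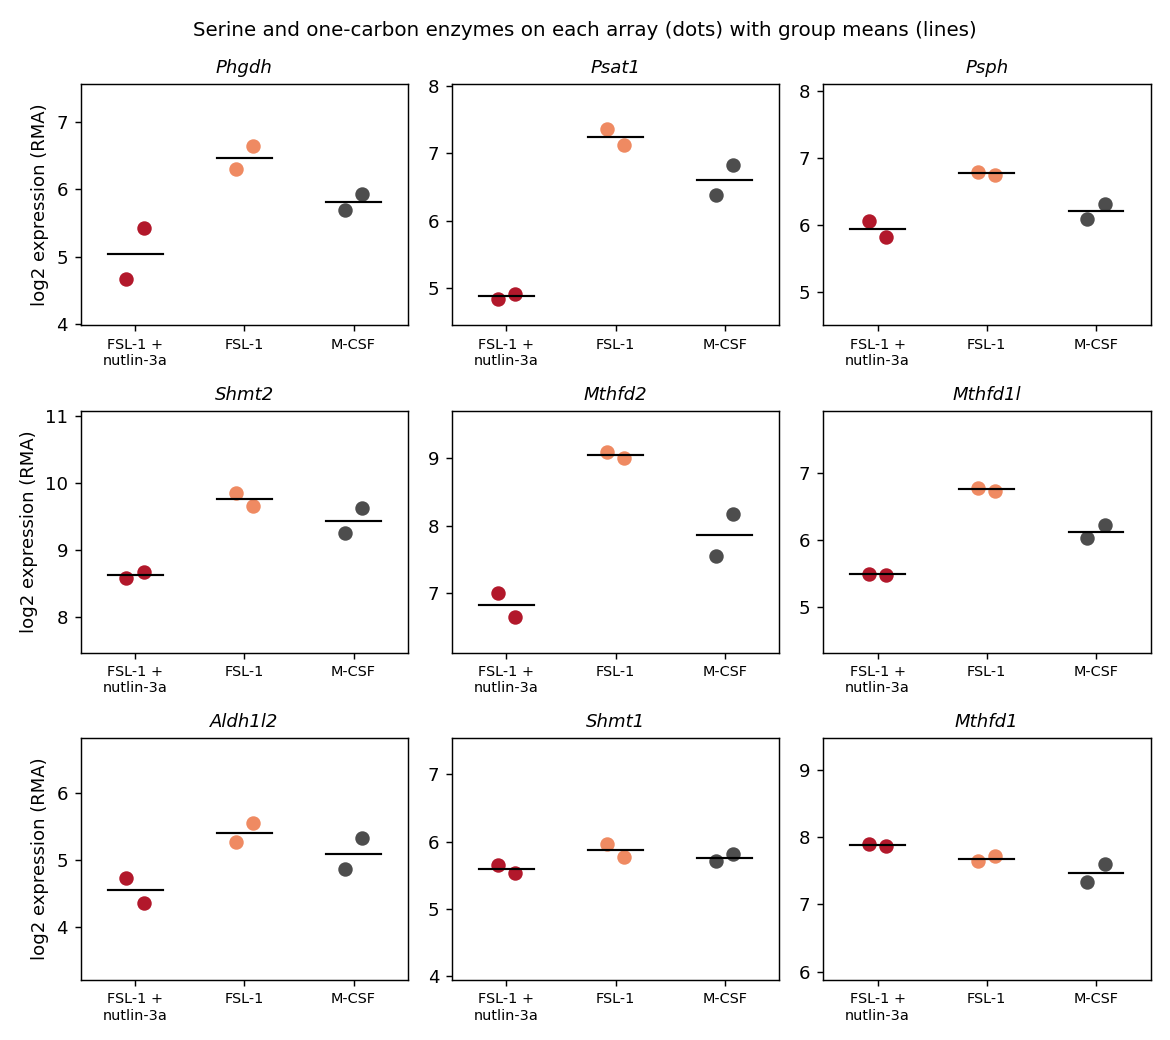
Each panel plots 1 enzyme, with the log2 expression of the 6 arrays (dots) and the group means (lines) in FSL-1 + nutlin-3a, FSL-1 and M-CSF from left to right. In 8 of the 9 panels both FSL-1 + nutlin-3a arrays lie below both FSL-1 arrays, and in the panel of Mthfd1 both lie above.

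Of the serine synthesis enzymes, Psat1 had the largest fall in FSL-1 + nutlin-3a against FSL-1. Its log2 level was 4.84 and 4.91 on the FSL-1 + nutlin-3a arrays, 7.37 and 7.12 on the FSL-1 arrays, and 6.38 and 6.82 on the M-CSF arrays. The 3 groups did not overlap, with FSL-1 highest. Psat1 fell by 2.37 on the log2 scale in FSL-1 + nutlin-3a against FSL-1 (SE 0.168, 95% interval -2.76 to -1.98, limma adjusted p = 0.000371), a level 5.17-fold lower, and it was the gene of rank 19 from the lowest change among all genes. The mean levels of Psat1 (4.87), Phgdh (5.05) and Mthfd1l (5.49) in FSL-1 + nutlin-3a lay below the median of all genes, 5.51, and above that of probe sets with no gene name, 4.25. Psat1 was also 3.32-fold lower in FSL-1 + nutlin-3a than in M-CSF (log2 difference -1.73, limma adjusted p = 0.000657). Against M-CSF, FSL-1 differed by 0.64 (95% interval 0.25 to 1.03, limma adjusted p = 0.0658), which did not pass.

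Phgdh, which commits carbon to serine, had the widest spread of the 9 enzymes on the nutlin-3a arrays. Its log2 level was 4.66 and 5.43 in FSL-1 + nutlin-3a, 6.30 and 6.65 in FSL-1, and 5.69 and 5.93 in M-CSF. The groups did not overlap, but the SD of the nutlin-3a pair was 0.545, against 0.245 in FSL-1 and 0.171 in M-CSF (n = 2 each). Phgdh fell by 1.43 in FSL-1 + nutlin-3a against FSL-1 (SE 0.246, 2.69-fold, limma adjusted p = 0.0158), and this call was lost without FSL-1 array 1 (adjusted p = 0.0603), without FSL-1 array 2 (0.114) and without nutlin-3a array 1 (0.0506). The difference between FSL-1 and M-CSF was 0.67 (95% interval 0.10 to 1.24, limma adjusted p = 0.168) and that between FSL-1 + nutlin-3a and M-CSF -0.76 (limma adjusted p = 0.101). Neither passed.

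Psph, the last enzyme of serine synthesis, had log2 levels of 6.07 and 5.82 in FSL-1 + nutlin-3a, 6.80 and 6.75 in FSL-1, and 6.10 and 6.32 in M-CSF. FSL-1 stood above both other groups. Psph fell by 0.83 in FSL-1 + nutlin-3a against FSL-1 (SE 0.138, 1.77-fold, limma adjusted p = 0.0136), a call lost without FSL-1 array 1 (0.103), FSL-1 array 2 (0.0907) or nutlin-3a array 2 (0.0754). In FSL-1 against M-CSF it differed by 0.56 (95% interval 0.25 to 0.88, limma adjusted p = 0.0513), and in FSL-1 + nutlin-3a cultures against M-CSF by -0.26 (limma adjusted p = 0.299).

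The mitochondrial hydroxymethyltransferase was called lower with nutlin-3a and the cytosolic one was not called. Shmt2 had log2 levels of 8.58 and 8.68 in FSL-1 + nutlin-3a, 9.85 and 9.67 in FSL-1, and 9.25 and 9.63 in M-CSF. Its nutlin-3a arrays lay below all the others. Shmt2 fell by 1.13 against FSL-1 (SE 0.154, 2.19-fold, limma adjusted p = 0.00594), a call lost without FSL-1 array 1 (0.0603), and it was 1.76-fold lower than in M-CSF (log2 difference -0.81, limma adjusted p = 0.0151), which did not pass without M-CSF array 2 (0.0695), nutlin-3a array 1 (0.0844) or nutlin-3a array 2 (0.0584). FSL-1 and M-CSF differed by 0.32 (95% interval -0.04 to 0.67, limma adjusted p = 0.295). Shmt1 ranged only between 5.53 and 5.96 over the 6 arrays. It had 5.66 and 5.53 in FSL-1 + nutlin-3a, 5.96 and 5.78 in FSL-1, and 5.72 and 5.81 in M-CSF, and its difference between FSL-1 + nutlin-3a and FSL-1 was -0.28 (95% interval -0.56 to 0.01, limma adjusted p = 0.257). Its FSL-1 and M-CSF arrays overlapped (difference 0.11, adjusted p = 0.714), and FSL-1 + nutlin-3a differed from M-CSF by -0.17 (adjusted p = 0.479). Whether the change of Shmt2 differs from that of Shmt1 was not tested.

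Mthfd2, the mitochondrial dehydrogenase and cyclohydrolase of the pathway, had log2 levels of 6.998 and 6.642 in FSL-1 + nutlin-3a, 9.102 and 8.999 in FSL-1, and 7.543 and 8.171 in M-CSF. The 3 groups did not overlap. Mthfd2 fell by 2.23 in FSL-1 + nutlin-3a against FSL-1 (SE 0.213, 95% interval -2.72 to -1.74, 4.69-fold, limma adjusted p = 0.00137), at rank 27 from the lowest change. It rose by 1.19 in FSL-1 against M-CSF (2.29-fold, limma adjusted p = 0.0163), and it was 2.05-fold lower in FSL-1 + nutlin-3a than in M-CSF (log2 difference -1.04, limma adjusted p = 0.0214). The rise with FSL-1 did not pass without M-CSF array 1 (0.0714), FSL-1 array 1 (0.111) or FSL-1 array 2 (0.0868). The difference from M-CSF did not pass without M-CSF array 2 (0.0757) or nutlin-3a array 2 (0.117).

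Mthfd1l, the mitochondrial synthetase that releases formate, had close replicates in both groups that received FSL-1. Its log2 level was 5.50 and 5.48 in FSL-1 + nutlin-3a, 6.77 and 6.73 in FSL-1, and 6.02 and 6.22 in M-CSF. The groups did not overlap. It fell by 1.26 in FSL-1 + nutlin-3a against FSL-1 (SE 0.12, 2.40-fold, limma adjusted p = 0.00133), rose by 0.63 in FSL-1 against M-CSF (1.55-fold, limma adjusted p = 0.0209), and was lower by a similar amount in FSL-1 + nutlin-3a than in M-CSF (-0.63, 1.55-fold, limma adjusted p = 0.0151). The call of FSL-1 against M-CSF was lost without M-CSF array 1 (0.128), FSL-1 array 1 (0.136) or FSL-1 array 2 (0.114), and the difference from M-CSF was lost without M-CSF array 2 (0.0783), nutlin-3a array 1 (0.0671) or nutlin-3a array 2 (0.0717).

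Aldh1l2 acts in mitochondria and Mthfd1 in the cytosol. Aldh1l2 had log2 levels of 4.73 and 4.37 in FSL-1 + nutlin-3a, 5.26 and 5.55 in FSL-1, and 4.86 and 5.33 in M-CSF, so its M-CSF arrays overlapped those of FSL-1 and not those of FSL-1 + nutlin-3a. It fell by 0.86 in FSL-1 + nutlin-3a against FSL-1 (SE 0.198, limma adjusted p = 0.0455), the weakest of the 7 calls, and all its group means were below the median of all genes, 5.51. Its call did not pass when any 1 array of FSL-1 + nutlin-3a or FSL-1 was left out (0.0782 to 0.233). It differed by 0.31 between FSL-1 and M-CSF (adjusted p = 0.449) and by -0.55 between FSL-1 + nutlin-3a and M-CSF (adjusted p = 0.14). Mthfd1 ran the other way, with 7.90 and 7.87 in FSL-1 + nutlin-3a, 7.64 and 7.72 in FSL-1, and 7.33 and 7.61 in M-CSF. Its nutlin-3a arrays were the highest, yet the difference from FSL-1 was 0.21 (95% interval -0.10 to 0.51, limma adjusted p = 0.427), that between FSL-1 and M-CSF 0.21 (adjusted p = 0.434) and that from M-CSF 0.41 (95% interval 0.11 to 0.72, limma adjusted p = 0.0926), and none passed.

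**Figure D2:**
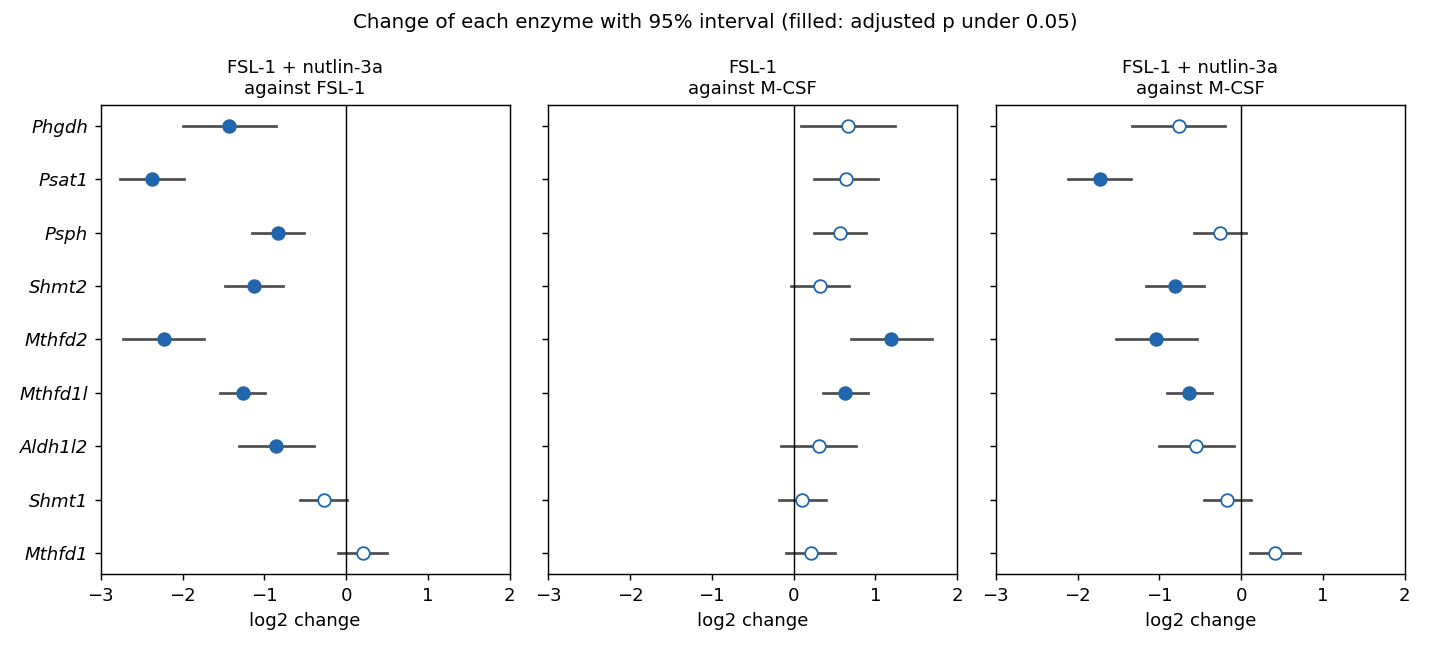
The log2 change of each enzyme is plotted with its 95% interval in FSL-1 + nutlin-3a against FSL-1, FSL-1 against M-CSF and FSL-1 + nutlin-3a cultures against M-CSF, with filled points where the limma adjusted p was under 0.05. In the first panel 7 of 9 points are filled and left of 0, with Psat1 at -2.37 and Mthfd2 at -2.23 the furthest, while Shmt1 and Mthfd1 are open.

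Groups that did not overlap array by array were also counted. In FSL-1 + nutlin-3a against FSL-1, both arrays of the nutlin-3a group lay below both FSL-1 arrays for 8 of 9 enzymes and above them for 1, against 23.7% and 27.2% of all genes. In FSL-1 against M-CSF, FSL-1 lay above for 7 and below for 0, against 24.6% and 25.6%. In FSL-1 + nutlin-3a cultures against M-CSF, the nutlin-3a group lay below for 8 and above for 1, against 24.2% and 27.3%. The median log2 change over the 9 enzymes was -1.13, 0.56 and -0.63 in the 3 comparisons in this order, where that of all genes was 0.02, -0.01 and 0.02. In a bulk sample, fewer cells of a type and less RNA per cell cannot be told apart.

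The number of calls depended on single arrays. The 7 lower calls in FSL-1 + nutlin-3a against FSL-1 became 3 without FSL-1 array 1, 4 without FSL-1 array 2 and 5 without either nutlin-3a array. The 2 higher calls in FSL-1 against M-CSF became 0 without M-CSF array 1, FSL-1 array 1 or FSL-1 array 2, and the 4 lower calls in FSL-1 + nutlin-3a cultures against M-CSF became 1 without M-CSF array 2 and 2 without either nutlin-3a array. Psat1, Mthfd2 and Mthfd1l were called lower in FSL-1 + nutlin-3a against FSL-1 under all 15 alternatives tried, and Psat1 was also called lower against M-CSF under all 15. All 9 enzymes were higher on M-CSF array 2 than on M-CSF array 1, by 0.09 to 0.63, against 51.1% of all genes, while 3 of 9 were higher on replicate 2 in FSL-1 + nutlin-3a and 3 of 9 in FSL-1. This step between the M-CSF arrays moved with the enzymes and touches every comparison with M-CSF. Its part in the results was not tested.

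ATF4 and its known targets outside the enzymes were described from a list with 23 of 24 genes measured. Their part in the enzymes' result was not tested. In FSL-1 + nutlin-3a against FSL-1, 16 fell and 1 rose (list median -1.08), where 4.12% of all genes were called lower and 2.38% higher. Atf4 itself had 8.02 and 8.08 in FSL-1 + nutlin-3a, 9.35 and 9.27 in FSL-1, and 8.42 and 8.77 in M-CSF, and it fell by 1.26 (limma adjusted p = 0.0026) with nutlin-3a. Asns, the asparagine synthetase, fell by 2.09 (adjusted p = 0.00228), and the same limma fit gave log2 changes of -2.32 for the pseudokinase Trib3 (0.000344), -1.35 for the stress factor Ddit3 (0.00325), -1.81 for the stress regulator Nupr1 (0.00024), and -2.79 and -1.83 for the amino acid transporters Slc7a5 (0.000808) and Slc7a1 (0.00119). The 1 gene that rose was Ddit4, an inhibitor of mTORC1 (1.00, adjusted p = 0.0223). That rise did not pass without FSL-1 array 1 or either nutlin-3a array (0.095 to 0.133), while the falls named here passed with each array left out.

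In FSL-1 against M-CSF, 14 genes of the ATF4 list rose and 0 fell (0 also at an unadjusted p under 0.05 in limma), with a list median of 0.72. Over all genes 3.91% were called higher and 2.95% lower there. Trib3 rose by 1.69 (adjusted p = 0.000933), Asns by 1.00 (0.0391), Ddit3 by 1.07 (0.00777), Atf4 by 0.72 (0.0238) and the cystine transporter Slc7a11 by 4.70 (1.14e-05), where its second probe set gave 1.32. The rises of Trib3 and Slc7a11 passed with each array left out. That of Atf4 was lost without M-CSF array 1 or either FSL-1 array (0.113 to 0.15), that of Ddit3 without FSL-1 array 2 (0.0622), and that of Asns in every such fit but the one without M-CSF array 2 (0.063 to 0.212). The 14 became 6 without M-CSF array 1, 6 without FSL-1 array 1 and 5 without FSL-1 array 2. In FSL-1 + nutlin-3a cultures against M-CSF, 5 rose and 8 fell (list median -0.34), where 4.58% of all genes were called higher and 4.94% lower. Among the 8 were Slc7a5 (-2.01, adjusted p = 0.00159), which passed with each array left out, and Asns (-1.09, 0.0217), which did not pass without M-CSF array 2 or either nutlin-3a array (0.058 to 0.111). Among the 5 were Sesn2 (1.18, 0.00179) and Slc7a11 (5.34, 1.09e-05, and 1.82 in its second probe set), and both passed with each array left out. Without M-CSF array 2 these counts were 3 and 4, without nutlin-3a array 1 they were 3 and 5, and without nutlin-3a array 2 they were 3 and 3.

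The neighbours of the enzymes in the pathway were counted in 7 further lists. Of 9 measured genes of serine use, 0 changed in FSL-1 + nutlin-3a against FSL-1 in the limma fit (0 higher and 1 lower at an unadjusted p under 0.05), and Serinc5, which aids serine incorporation into membrane lipids, was lower in FSL-1 than in M-CSF (-1.58, adjusted p = 0.000495) and lower in FSL-1 + nutlin-3a than in M-CSF (-1.32, 0.000794). Of 10 other folate enzymes, 2 fell with nutlin-3a against FSL-1, Tyms, the thymidylate synthase (-0.88, 0.0279), and Ggh, which trims folate polyglutamates (-0.49, 0.0435). Tyms was also lower in FSL-1 + nutlin-3a than in M-CSF (-1.45, 0.00199). Mthfs (-1.07, 0.02) and the methionine synthase Mtr (-0.72, 0.0348) were lower in FSL-1 than in M-CSF. Of 7 carriers, the folate receptor Folr2 fell with nutlin-3a against FSL-1 (-0.66, 0.0206) and was higher in FSL-1 than in M-CSF (0.80, 0.00863), the mitochondrial glycine carrier Slc25a38 fell (-0.58, 0.0353), and the folate transporter Slc46a1 rose with nutlin-3a (0.63 against FSL-1, 0.0437, and 0.89 against M-CSF, 0.00751).

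The remaining neighbouring lists follow, and the shares called over all genes apply to all 7 lists. Those shares were 4.12% lower and 2.38% higher in FSL-1 + nutlin-3a against FSL-1, and 2.95% lower and 3.91% higher in FSL-1 against M-CSF. In FSL-1 + nutlin-3a cultures against M-CSF they were 4.94% lower and 4.58% higher. Of 4 glycine cleavage genes Dld, the lipoamide dehydrogenase it shares with other complexes, fell with nutlin-3a against FSL-1 (-0.64, limma adjusted p = 0.0194). Of 6 methionine and methyl cycle genes Ahcyl1 fell with nutlin-3a (-0.53, 0.0338) and the spermidine synthase Srm was higher in FSL-1 than in M-CSF (1.09, 0.00766). Of 10 purine synthesis genes Adss fell (-0.59, 0.0216) and Prps2 rose (0.58, 0.03) with nutlin-3a against FSL-1, and Impdh1 was higher in FSL-1 than in M-CSF (1.04, 0.00182) and higher in FSL-1 + nutlin-3a than in M-CSF (0.61, 0.0135). Of proline synthesis and breakdown 5 genes were measured, with a list median of 0.16 in FSL-1 + nutlin-3a against FSL-1. Aldh18a1, the first enzyme of the synthesis, fell by 1.797 with nutlin-3a against FSL-1 (adjusted p = 0.00151) and rose by 1.203 in FSL-1 against M-CSF (0.00729). Oat fell by 0.81 with nutlin-3a against FSL-1 (0.0132) and was lower in FSL-1 + nutlin-3a than in M-CSF (-0.89, 0.00494). Across these 7 lists, the call of Aldh18a1 was the only one in FSL-1 + nutlin-3a against FSL-1 that passed whichever array was left out. The other 10 (Tyms, Ggh, Folr2, Slc25a38, Slc46a1, Dld, Ahcyl1, Adss, Prps2 and Oat) did not pass without FSL-1 array 1 or without FSL-1 array 2, nor, for all but Oat, without nutlin-3a array 1, and for all but Tyms without nutlin-3a array 2, with adjusted p up to 0.237. In FSL-1 against M-CSF the calls of Mthfs, Mtr and Folr2 were lost without M-CSF array 1 or either FSL-1 array (up to 0.193), that of Srm without either FSL-1 array (up to 0.0632) and that of Aldh18a1 without FSL-1 array 1 (0.0666). Against M-CSF, Slc46a1 was lost without nutlin-3a array 2 (0.0524) and Impdh1 without either M-CSF array or nutlin-3a array 1 (up to 0.0762) in FSL-1 + nutlin-3a, while Serinc5, Oat and Tyms passed throughout, as did Serinc5 and Impdh1 in FSL-1.

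Replication genes were counted because the folate pathway feeds nucleotide synthesis. The shares called over all genes in each comparison are those given above for the other lists. Of 19 measured, 8 fell and 0 rose in FSL-1 + nutlin-3a against FSL-1 (list median -0.70), among them the ribonucleotide reductase subunits Rrm2 (-1.65, limma adjusted p = 0.00196) and Rrm1 (-1.34, 0.00816). The 8 became 1 without FSL-1 array 1, 1 without FSL-1 array 2, 3 without nutlin-3a array 1 and 1 without nutlin-3a array 2. Against M-CSF, 12 fell in FSL-1 + nutlin-3a (list median -0.80), a count of 7 without either nutlin-3a array. In FSL-1 against M-CSF 1 fell, Lig1 (-0.69, 0.0277), a call lost without any 1 array of these groups, and 0 rose. Lower replication genes therefore moved with the lower enzymes in the nutlin-3a group, and their part in the result was not tested. A second probe set of Rrm2 gave -0.30.

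Myc, which is known to raise serine and folate genes, had log2 levels of 7.27 and 7.66 in FSL-1 + nutlin-3a, 9.11 and 9.10 in FSL-1, and 6.66 and 7.50 in M-CSF. It fell by 1.64 with nutlin-3a against FSL-1 (limma adjusted p = 0.0114), rose by 2.02 in FSL-1 against M-CSF (0.00397), and the nutlin-3a group differed from M-CSF by 0.39 (0.427). The part of Myc in the enzymes' result was not tested. The fall did not pass without nutlin-3a array 1 or either FSL-1 array (0.0773 to 0.0808). Mdm2, a p53 target whose product nutlin-3a binds, was 11.52 and 11.53 in FSL-1 + nutlin-3a, 10.76 and 10.75 in FSL-1, and 9.98 and 9.76 in M-CSF. It rose by 0.77 with nutlin-3a against FSL-1 (limma adjusted p = 0.0113) and by 0.88 in FSL-1 against M-CSF (0.00566). The first of these did not pass without any 1 array of the compared groups (0.0591 to 0.0901), nor the second without either FSL-1 array (0.0504 to 0.0543), while the rise of 1.65 in FSL-1 + nutlin-3a over M-CSF (0.000165) passed with each array left out.

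Patterns were compared among the 11664 genes outside the enzymes whose highest group mean lay above the median of all genes. The genes most like the serine synthesis enzymes in pattern were sought over the 6 arrays, as the root-mean-square distance of centred log2 values from the mean profile of Phgdh, Psat1 and Psph. They were the tubulin Tuba1a (distance 0.0628), the glutamine transporter Slc1a5 (0.118), Septin11 (0.129), the cytokine Tnfsf13b (0.149) and Hectd2os (0.159). In the probe sets used, the log2 change in FSL-1 + nutlin-3a against FSL-1 was -1.63 for Tuba1a and -1.33 for Slc1a5. Each has a second probe set, which gave -0.93 for Tuba1a and -0.19 for Slc1a5, and tubulin genes are near identical in sequence, so these levels are uncertain. The single nearest genes were the nucleoside carrier Slc28a2 for Phgdh (0.165), Slc7a5 for Psat1 (0.204), S100a6 for Psph (0.0429), Rtn4 for Shmt1 (0.0274), Lat2 for Shmt2 (0.0855), Cox6b1 for Mthfd1 (0.019), the seryl-tRNA synthetase Sars for Mthfd1l (0.0639), Slc43a3 for Mthfd2 (0.0959) and Snora34 for Aldh1l2 (0.0616). All points share the same arrays and the same normalization.

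The labelled cell type was checked against fixed markers. All 8 macrophage markers lay above the median of all genes in each group, with group means of 8.11 to 13.24, and 2 of the 8 were called lower in FSL-1 + nutlin-3a than in FSL-1. They were Fcgr1, an Fc receptor (8.11 in FSL-1 + nutlin-3a, 9.69 in FSL-1 and 9.16 in M-CSF, limma adjusted p = 0.00228), and the mannose receptor Mrc1 (11.35, 12.20 and 12.56 in the same order, 0.00541), which did not pass when an FSL-1 array was left out (0.0529 and 0.0536). In FSL-1 + nutlin-3a against FSL-1, 0 of the 8 were called higher, and the median change of the list was -0.05. At an unadjusted p under 0.05 in limma, 2 of the 8 were higher and 3 lower. The mean of the list was 11.34 to 11.40 on the FSL-1 + nutlin-3a arrays, 11.55 to 11.65 on the FSL-1 arrays and 11.55 to 11.69 on the M-CSF arrays. Of 8 fibroblast markers, 2 in FSL-1 + nutlin-3a, 3 in FSL-1 and 3 in M-CSF lay above that median. Their list mean was 5.18 to 5.19 on the FSL-1 + nutlin-3a arrays, 5.49 to 5.68 on the FSL-1 arrays and 5.23 to 5.26 on the M-CSF arrays, with group means of single markers between 2.72 and 8.59. The group mean was highest in FSL-1 for 6 of the 8. In FSL-1 + nutlin-3a against FSL-1, 2 of 8 were called lower, a count of 0 without FSL-1 array 2 or nutlin-3a array 2 and 1 without nutlin-3a array 1. The 2 were Col1a2 (-0.795, limma adjusted p = 0.0292) and the smooth muscle actin Acta2, with means of 7.26 in FSL-1 + nutlin-3a, 8.59 in FSL-1 and 7.61 in M-CSF. Acta2 was also the 1 fibroblast marker called higher in FSL-1 than in M-CSF (0.99, 0.0356), a call that depended on single arrays. In FSL-1 + nutlin-3a cultures against M-CSF, 1 was called higher, Pdgfrb (0.57, 0.0329). In both comparisons with M-CSF, 0 were called lower. Of 8 neutrophil, 6 lymphocyte, 5 dendritic and 5 erythroid, mast and megakaryocyte markers, at most 1 of each list lay above the median in any group. The platelet factor Pf4 lay above it in each group, with means of 8.25 in FSL-1 + nutlin-3a, 9.11 in FSL-1 and 8.40 in M-CSF. It was called lower in FSL-1 + nutlin-3a than in FSL-1 (-0.86, limma adjusted p = 0.00613), a call lost without either FSL-1 array (0.0537 and 0.0603), and higher in FSL-1 than in M-CSF (0.71, 0.0121), a call lost without M-CSF array 1 or either FSL-1 array (0.0822 to 0.0933). Among the neutrophil markers, S100a8 had means of 6.365 in FSL-1 + nutlin-3a, 6.596 in FSL-1 and 4.193 in M-CSF. Against M-CSF it was called higher in FSL-1 (2.40, limma adjusted p = 0.000825) and in FSL-1 + nutlin-3a (2.17, 0.000843). It was the only 1 of the 8 neutrophil markers called higher in either comparison, and 0 were called lower. The dendritic marker Ccr7 was called higher in FSL-1 than in M-CSF (0.65, 0.0208). It was the only 1 of the 5 dendritic markers called higher there, and 0 were called lower. How far these calls depend on single arrays is not given here. The part of these markers in the enzymes' result was not tested.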

How the data were processed

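Each deposited value is the log2 expression of a probe set. Per the submitters' processing notes, the authors used RMA and version 1.4 of Affymetrix Expression Console. RMA subtracts background, brings the arrays to the same quantiles and combines the probes of a set, so a change shared by most genes would not show. RNA of sorted cells was amplified before labelling, per the labels' protocols. Array medians were 5.05 to 5.14. Exactly 1 gene was named by 23521 of the 34390 probe sets, which gave 22180 genes, while 1814 named several and 9055 none. The number of arrays limits the precision, and the median SD between replicates was 0.104 in FSL-1 + nutlin-3a, 0.0917 in FSL-1 and 0.106 in M-CSF. The background level is unknown without detection calls, and probe sets that name no gene had a median of 4.25.

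The functions lmFit and eBayes of limma 3.58.1 (R 4.3.3) were run over all genes and the 6 arrays together, with 3 residual and 4.88 prior degrees of freedom, and called at a Benjamini-Hochberg adjusted p under 0.05 over all genes. The script was tested on simulated data. The members and lists were chosen with earlier results of these data known. Genes other than the enzymes were named by a rule: from each list and comparison at most 4 called genes, those of smallest p, Atf4, Ddit3, Asns, Trib3, Myc and Mdm2, and the nearest patterns. Further genes named here were chosen after their values were seen: Ddit4, Slc3a2 and the marker genes Acta2, Fcgr1, Mrc1, Pf4, S100a8 and Ccr7. RefSeq synonyms matched listed genes that the annotation names otherwise. Alternatives were eBayes with trend and robust, another quantile step, array centring, averaging the probe sets of a gene, a filter on dim genes, the compared groups alone, a replicate block, array weights and each array left out. Identity between the proteins was planned and is not analysed here. Figures were drawn with matplotlib 3.10.9.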

Additional observations from a re-analysis of the deposited data

How the results depend on the processing

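No enzyme changed direction under any alternative. With eBayes trend and robust, 4 enzymes were called higher in FSL-1 against M-CSF and 1 higher in FSL-1 + nutlin-3a cultures against M-CSF (2 and 0 as reported, and 3 and 0 with array weights). With dim genes removed the counts were again 4 and 1, and 6 instead of 7 were lower in FSL-1 + nutlin-3a against FSL-1, because Aldh1l2 was removed. Leaving out 1 array gave 3 to 7 enzymes lower in FSL-1 + nutlin-3a against FSL-1, 0 to 3 higher in FSL-1 against M-CSF, and 1 to 4 lower in FSL-1 + nutlin-3a cultures against M-CSF. Genes called over the whole table, 1441 in FSL-1 + nutlin-3a against FSL-1, 1521 for FSL-1 against M-CSF and 2110 in FSL-1 + nutlin-3a cultures against M-CSF, were 2658, 2744 and 3337 with trend and robust, 2626, 2703 and 3334 without dim genes, and 352 to 1212, 451 to 1299 and 1158 to 1529 with 1 array left out. The replicate numbers share no stated culture. Deviations of same-numbered arrays correlated at -0.02 between FSL-1 + nutlin-3a and FSL-1, -0.19 between FSL-1 and M-CSF and 0.02 between FSL-1 + nutlin-3a and M-CSF. With the replicate block 6 enzymes were lower in FSL-1 + nutlin-3a against FSL-1, and 5 were lower than in M-CSF, with 1005, 1167 and 1725 genes called. With the M-CSF numbers crossed, a pairing added after seeing the data, 1148, 1278 and 1971 genes were called. Among the genes named, leaving aside S100a8 and Ccr7, 6 others turned direction when 1 array was left out: Lig1 in FSL-1 + nutlin-3a against FSL-1 (-0.251 to 0.046), Mcm3 (-0.272 to 0.234), Ddit4 (-0.298 to 0.193, and 0.131 without M-CSF replicate 1), Rrm2 (-0.008 to 0.488) and Rtn4 (-0.026 to 0.146) in FSL-1 against M-CSF, and Myc in FSL-1 + nutlin-3a cultures against M-CSF (-0.036 to 0.810). The cause was not tested. With 1 array left out, its group's lone array is assumed to vary like the others.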

Other observations

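Of the 23 genes of the ATF4 list, 16 fell with nutlin-3a against FSL-1, and the values of some of the others are given here, chosen after they were seen. Ddit4 had log2 levels of 7.04 and 7.11 in FSL-1 + nutlin-3a, 5.83 and 6.32 in FSL-1, and 6.31 and 5.95 in M-CSF, so the nutlin-3a arrays stood above all the others. Sesn2, a leucine-binding inhibitor of mTORC1 signalling and a known p53 target, had 9.51 and 9.29 in FSL-1 + nutlin-3a, 8.86 and 8.97 in FSL-1, and 8.35 and 8.10 in M-CSF. Its difference between FSL-1 + nutlin-3a and FSL-1 was 0.48 (limma adjusted p = 0.0911), and it was higher in FSL-1 + nutlin-3a than in M-CSF (1.18, 0.00179). Sesn2 was already called higher in FSL-1 alone than in M-CSF (0.69, 0.026), a call that depended on single arrays. The lipoprotein receptor Vldlr was also higher in FSL-1 + nutlin-3a than in M-CSF (1.01, limma adjusted p = 0.002), and its difference between FSL-1 + nutlin-3a and FSL-1 was 0.40 (0.104). In FSL-1 alone Vldlr was likewise called higher than in M-CSF (0.61, 0.0264), a call that depended on single arrays.

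The cystine transporter is a pair of proteins. Slc7a11, its light chain, had 10.498 and 9.973 in FSL-1 + nutlin-3a, 9.69 and 9.50 in FSL-1, and 4.97 and 4.81 in M-CSF. Its difference between FSL-1 + nutlin-3a and FSL-1 was 0.64 (limma adjusted p = 0.0853), and its second probe set gave 0.50. Against M-CSF the probe sets differed in size, with 5.34 and 1.82 in FSL-1 + nutlin-3a and 4.70 and 1.32 in FSL-1. Slc3a2, the heavy chain that Slc7a11 shares with Slc7a5, differed by -0.13 in FSL-1 + nutlin-3a against FSL-1 (0.646), while Slc7a5 fell by 2.79 there.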
